A study of Oryza sativa with 6 samples.

Results

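Stretches of at least 15 kb without a BG4-DNA-IP-seq peak in any of 4 libraries of rice genomic DNA are described here. They were found by pooling the peaks of the 4 lists, merging peaks that overlap by at least 1 bp, and keeping every gap of at least 15000 bp between neighbouring merged intervals on chromosomes 1 to 12. This gave 1125 peak-free stretches among 115816 gaps, which is 0.971% of the gaps. The stretches were chosen on the peak positions of these same libraries, so their number, length and place are given as a description and were not tested. In BG4-DNA-IP-seq, fragmented genomic DNA is denatured and allowed to refold, and the fragments recovered by an antibody against G-quadruplexes (G4s) are sequenced. The DNA came from 2-week-old wild-type seedlings of the cultivar Nipponbare, and the 4 libraries are 2 replicates under K+PEG (150 mM KCl with 40% PEG) and 2 under K+PDS (150 mM KCl with 5.0 μM PDS), with PEG and PDS concentrations as the methods give them. Both conditions thus share the K+ of the buffer, and neither is a control of the other. The seedlings were cross-linked with formaldehyde before DNA was prepared from them. Input DNA (2 libraries) was not used here. The lists held between 64874 and 81992 peaks, and the depth recovered from them, with a read extension of 200 bp, lay between 5985000 and 13334915 reads. At these depths, 15000 bp would hold between 236 and 526 reads if a library's reads were distributed uniformly over 380000000 bp, the genome size used in peak calling. Weaker signal, below the threshold at which peaks were called, is not in the lists, so a peak-free stretch may still hold some signal. Assembly gaps and repeats under the stretches were not examined, so a stretch is not shown to be free of G4s.

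G4s are structures in which guanines of nearby G-tracts pair into stacked planes around a central cation, and K+ favours their folding. PEG acts as a crowding agent that dehydrates DNA and favours compact folds, whereas PDS (pyridostatin) is a small molecule that binds to G4s and stabilises them. BG4 is a single-chain antibody that recognises many forms of G4. In plant genomes, sequences that could fold into G4s are common near genes and in transposable elements, so long runs without a G4 peak are the complement of a densely marked map.

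The stretches together measured 22.2 Mb, or 5.96% of the 373.1 Mb between the first and the last peak of the 12 chromosomes. All peaks of the 4 lists together covered 68.4 Mb, and the median gap between merged peaks was 1380 bp. Most stretches were only slightly longer than the minimum. Their median length was 17696 bp, with quartiles of 16182 and 20360 bp and a range from 15003 to 201780 bp. The number of gaps fell steadily as the minimum was raised. A minimum of 5 kb was reached by 19350 gaps, 10 kb by 4411, 15 kb by 1125, 20 kb by 300, 30 kb by 53, 50 kb by 12 and 100 kb by 2. The 10 longest stretches held 831 kb, or 3.74% of all bases in stretches, so most of this sequence lies in many moderate runs. The 3 shortest stretches measured 15003 bp (chromosome 11 of MSU v7.0, from 5857157 to 5872159), 15007 bp (chromosome 5, from 5371471 to 5386477) and 15011 bp (chromosome 3, from 12231582 to 12246592). The 3 longest gaps that missed the minimum measured 14999 bp (chromosome 8, from 5629209 to 5644207), 14995 bp (chromosome 5, from 5925055 to 5940049) and 14984 bp (chromosome 12, from 5581658 to 5596641). The lengths on either side of the minimum thus form one continuous series.

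**Figure D1:**
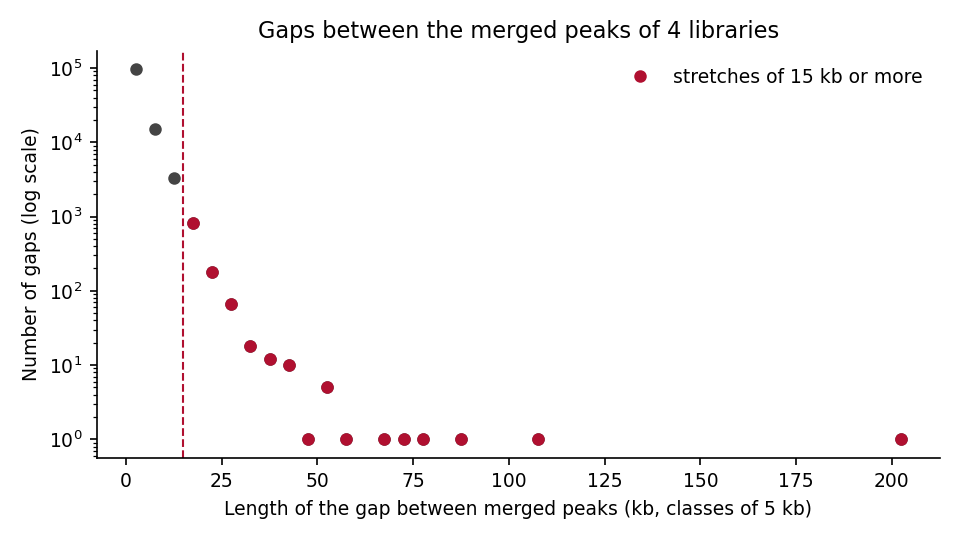
Number of gaps between merged peaks of the 4 libraries (y axis, log scale) against their length in kb (x axis), in classes of 5 kb drawn at their middle, with classes that hold no gap left out. Red points right of the dashed line are the 1125 stretches of at least 15 kb, of which 825 were shorter than 20 kb, and a single stretch of 201780 bp stands at the far right.

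Stretches were found on all 12 chromosomes. Chromosome 11 had the most, with 130 stretches, or 44.8 per 10 Mb, and 9.76% of its length lay in them. Chromosome 12 followed with 104 stretches and 7.17% of its length. The other 10 chromosomes had between 26.0 and 30.7 stretches per 10 Mb and between 5.02% and 6.19% of their length in stretches. Chromosome 11 also had the fewest peaks of the 4 lists together, with 730.4 per Mb, but chromosome 1 with 734.8 per Mb and chromosome 2 with 735.4 per Mb had nearly as few and far fewer stretches. Chromosome 12 had 803.2 peaks per Mb, more than 9 of the other chromosomes. The relation between the number of peaks and the number of stretches over the 12 chromosomes was not tested.

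Along the chromosomes, stretches were spread widely. When each chromosome was cut into 10 equal parts between its first and last peak, the outermost parts at either end held 135 and 147 stretches, and the others held between 93 and 125. Of 367 complete windows of 1 Mb, 26 (7.08%) held the start of no stretch, the median window held 3, and 9 windows held at least 8. Neighbouring stretches lay a median of 189.9 kb apart, with quartiles of 70.8 and 417 kb, and 78 of 1113 neighbouring pairs were less than 10 kb apart. The densest group lay on chromosome 11, from 4330356 to 5258414. It held 18 stretches of 15049 to 41826 bp, which together made up 398 kb, or 42.9% of that region. The group was chosen for its stretches, so few peaks over the whole of it follow from the choice. Over its bases outside stretches, K+PEG replicates 1 and 2 had 193 and 208 peaks per Mb, against 208.6 and 233.7 over all bases outside stretches on the 12 chromosomes. K+PDS replicates 1 and 2 had 125 and 164, against 184.9 and 196.6. The ratio of these densities was 0.923 and 0.888 for K+PEG and 0.674 and 0.835 for K+PDS, which describes a region picked on the same peaks.

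The longest stretch lay on chromosome 11, from 12353021 to 12554800, and measured 201780 bp, 1.92 times the length of the next one. The peak-free run around it in each library alone was 202357 and 201977 bp in K+PEG replicates 1 and 2, against 201781 and 202416 bp in K+PDS replicates 1 and 2. The runs of the 4 libraries thus differed little in length from each other and from the pooled stretch. Each of its border intervals held a peak of every library. On its left side, from 12351863 to 12353020, the authors' fold enrichment, which compares the reads at the summit with the local background, was 8.14 and 2.99 in K+PEG replicates 1 and 2, against 18.6 and 23.9 in K+PDS replicates 1 and 2. On its right side, from 12554801 to 12555862, the K+PEG replicates had 5.23 and 4.61 and the K+PDS replicates had 7.95 and 4.42. Chromosome 11 held 2 more of the 10 longest stretches, one of 67196 bp from 12199214 to 12266409 and one of 54652 bp from 6581175 to 6635826.

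The second longest stretch lay on chromosome 4, from 15583065 to 15688071, and measured 105007 bp. Each of its borders was a peak of a single library. The right one had a fold enrichment of 4.65 from 23 reads at the summit in K+PEG replicate 1, and the left one 3.86 from 15 reads in K+PDS replicate 1. Each library alone nonetheless had a run of similar length there, with 105504 and 106897 bp in K+PEG replicates 1 and 2, against 105766 and 106174 bp in K+PDS replicates 1 and 2. A stretch of 76386 bp followed on the same chromosome, from 15745795 to 15822180. Both of its borders were peaks of K+PDS replicates 1 and 2 only, with a fold enrichment of 7.71 and 4.22 on the left and of 6.99 and 4.22 on the right. The run without a peak extended a little further in K+PEG replicates 1 and 2, to 83386 and 80304 bp, against 76409 and 76435 bp in K+PDS replicates 1 and 2.

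Chromosome 7 carried 2 of the 10 longest stretches, with 87441 bp from 1316412 to 1403852 and 70617 bp from 3034686 to 3105302. Chromosome 2 carried 2 others, with 59684 bp from 21241461 to 21301144 and 53659 bp from 34107378 to 34161036, and chromosome 8 had 54816 bp from 11199736 to 11254551. The last 2 differed from the rest in how far single libraries reached. The run around the stretch at 34107378 on chromosome 2 was 107323 and 53752 bp in K+PEG replicates 1 and 2, against 107330 and 93053 bp in K+PDS replicates 1 and 2. A single peak of K+PEG replicate 2, with a fold enrichment of 6.11 from 48 reads, therefore set its left border. At the stretch on chromosome 8, the run was 59637 and 59638 bp in K+PEG replicates 1 and 2, against 99086 and 103904 bp in K+PDS replicates 1 and 2. Its left border held peaks of both K+PEG replicates, with a fold enrichment of 3.84 and 2.49, and none of K+PDS. On the remaining chromosomes, the longest stretch measured 51240 bp on chromosome 12 (from 24277578 to 24328817), 43097 bp on chromosome 10 (from 4106238 to 4149334), 42441 bp on chromosome 6 (from 3861498 to 3903938), 37617 bp on chromosome 9 (from 14479994 to 14517610), 36767 bp on chromosome 3 (from 18370321 to 18407087), 34116 bp on chromosome 1 (from 33111012 to 33145127) and 31765 bp on chromosome 5 (from 16746424 to 16778188).

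**Figure D2:**
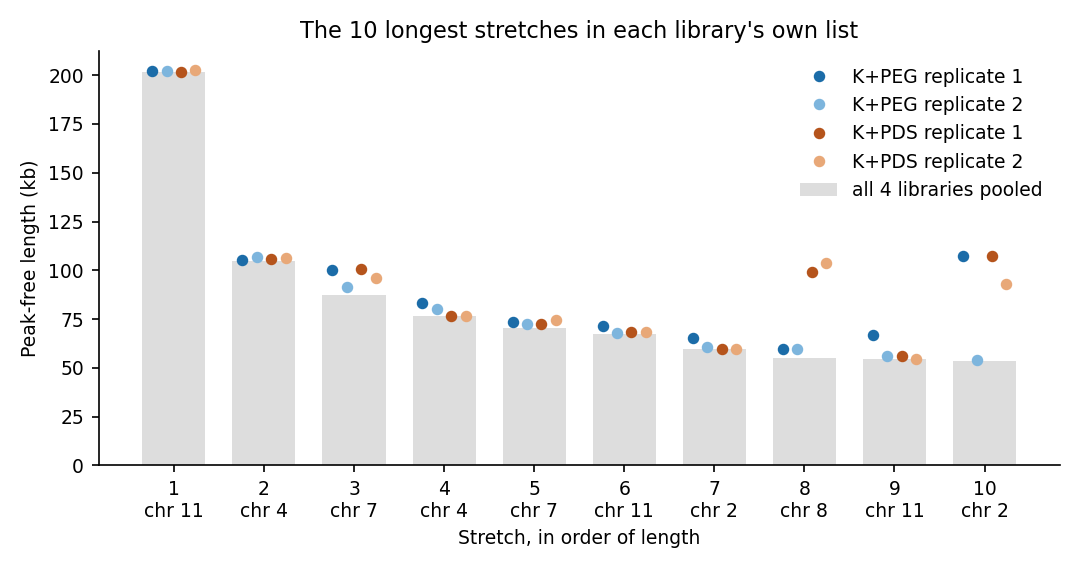
Peak-free length in kb (y axis) of the 10 longest stretches in order of length with their chromosome (x axis), as grey bars for the 4 lists pooled and as points for the run around the stretch in each library alone. The points lie close to the top of the bars for most stretches, but reach 99086 bp and more in both K+PDS libraries at rank 8 and 93053 bp and more in 3 libraries at rank 10.

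In 36 places a single merged interval had a stretch on either side. Such an interval is an isolated peak, or a group of overlapping peaks, within a longer run without peaks. These 36 intervals had a median length of 291 bp, against 437 bp for all merged intervals, and 18 of them held a peak of 1 library only, against a background of 36.7% of all merged intervals. Peaks of K+PEG only were found in 15 (41.7%, 95% Wilson interval 27.1 to 57.8%), against 27.4% of all merged intervals. Peaks of K+PDS only were found in 9 (25%, 13.8 to 41.1%), against 23.1%, and peaks of both conditions in 12 (33.3%), against 49.4%. Both Wilson intervals include the share of all merged intervals, and they cover counting error only. A merged interval with a peak of 1 library only can hold peaks of 1 condition only. These shares were not tested. The following examples were chosen after their values were seen. On chromosome 11, an interval of 468 bp from 6580707 to 6581174 parted stretches of 48569 and 54652 bp and held peaks of all 4 libraries, with a fold enrichment of 4.07 and 3.99 in the K+PEG replicates, against 5.54 and 3.62 in the K+PDS replicates. On chromosome 8, an interval of 267 bp with peaks of both K+PEG libraries parted stretches of 43462 and 54816 bp, so that both K+PDS libraries had no peak over the 98.5 kb from 11156007 to 11254551. On chromosome 10, an interval of 316 bp with peaks of both K+PDS libraries parted stretches of 43097 and 31095 bp, and both K+PEG libraries had no peak over the 74.5 kb from 4106238 to 4180745.

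The stretches had 2214 border intervals, fewer than 2 per stretch because of the 36 shared ones. Border intervals held peaks of several libraries about as often as others. Peaks of all 4 libraries were found in 529 of them (23.9%), against a background of 23.7% of the 115855 merged intervals, and a peak of 1 library only in 798 (36.0%), against 36.7%. Of the stretches, 62 (5.51%) had peaks of all 4 libraries on both sides, against 6.77% of all gaps, and 651 (57.9%) had at least 1 border that a single library called, against 58.7% of all gaps. The shares of border intervals with peaks of 1 condition only lay further from the background. Peaks of K+PEG only were found in 741 (33.5%, 95% Wilson interval 31.5 to 35.5%), against 27.4% of all merged intervals. Peaks of K+PDS only were found in 374 (16.9%, 15.4 to 18.5%), against 23.1%. Peaks of both conditions were found in 1099 (49.6%), against 49.4%. The Wilson intervals cover counting error only, not the spread between the libraries of a condition, and neighbouring stretches are not independent. The same peaks define the borders, so these shares are a description and were not tested. The part of a possible filter on uniquely mapped reads in the K+PDS lists, described below, was not tested either. The same direction was seen when each library was reduced to its 64874 strongest peaks, with 30.4% of borders against 23.6% of all intervals for K+PEG only and 20.2% against 29.3% for K+PDS only.

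The condition of the border peaks varied with the length of the stretch. Borders are counted here once for each stretch. At the 825 stretches of 15 to 20 kb, 34.5% of borders held peaks of K+PEG only and 16.7% held peaks of K+PDS only. At those of 20 to 30 kb, the shares were 31.6% and 15.4%. At the 53 stretches of 30 kb or more, they were 29.2% (95% Wilson interval 21.4 to 38.5%) and 30.2% (22.3 to 39.5%), from 31 and 32 of 106 borders. The low share of K+PDS only borders was therefore not seen at the longest stretches, but this class is small, it was defined after the lengths had been seen, and the difference between classes was not tested.

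**Figure D3:**
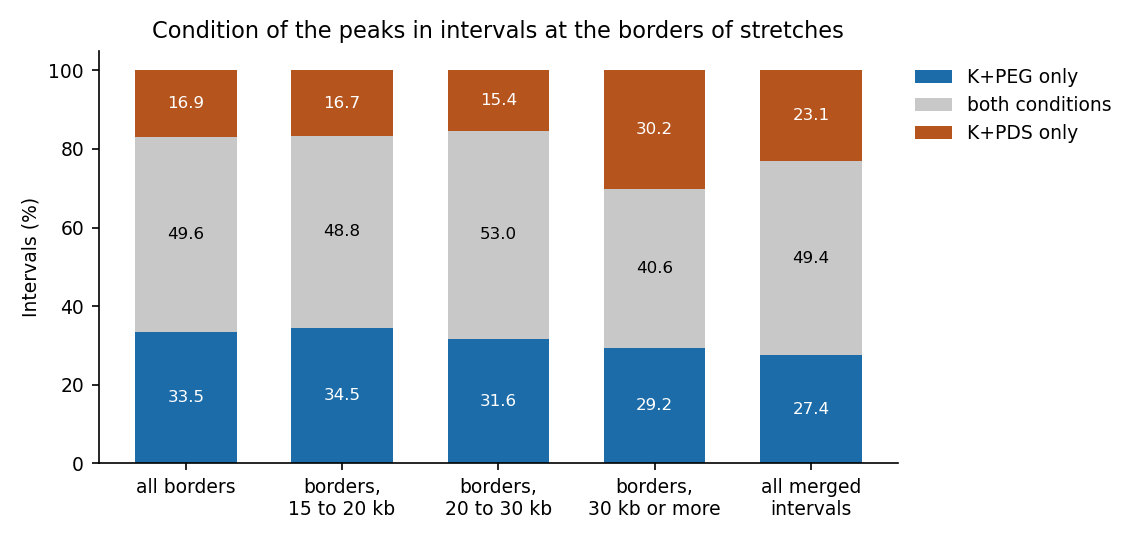
Share of intervals in percent (y axis) that hold peaks of K+PEG only (blue), of both conditions (grey) and of K+PDS only (orange), for all border intervals, for the borders of 3 length classes of stretches and for all merged intervals (x axis). Borders held 33.5% K+PEG only and 16.9% K+PDS only intervals, against 27.4% and 23.1% of all merged intervals, and K+PDS only intervals reached 30.2% at stretches of 30 kb or more.

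The exact edge of a stretch is the end of the outermost peak, and the libraries set unequal shares of the 1125 pairs of edges. K+PEG replicates 1 and 2 set 31.2% and 36.9% of the edges, with 25.3% and 28.4% of all peaks. K+PDS replicates 1 and 2 set 10.9% and 21.0% of the edges, with 22.4% and 23.9% of all peaks. Divided by its share of peaks, a library's share of edges averaged 1.27 ± 0.0507 for K+PEG and 0.683 ± 0.277 for K+PDS (SD, n = 2 each). The K+PEG minus K+PDS difference was 0.583. Each K+PEG library lay above each K+PDS library (two-sided exact permutation test, p = 0.333, the smallest value that 2 libraries against 2 allow), so the design cannot separate the conditions at 0.05. The difference was 0.256 without K+PDS replicate 1 and 0.918 without K+PEG replicate 1, so its size rests on single libraries. The shares of the 4 libraries add up to 100%, so they are not independent. Shares of edges over all gaps were not counted, so these ratios may not be particular to the stretches. The names of the peaks in both K+PDS lists, but not in the K+PEG lists, hold the word uniq, and the part of a possible filter on uniquely mapped reads was not tested.

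Border peaks, defined as all peaks of a library inside border intervals, numbered 1509 and 1633 in K+PEG replicates 1 and 2, against 1022 and 1237 in K+PDS replicates 1 and 2. Their median fold enrichment was slightly above that of the other peaks in each library. K+PEG replicates 1 and 2 had 3.94 against 3.78 and 3.87 against 3.58. K+PDS replicates 1 and 2 had 3.86 against 3.77 and 3.28 against 3.23. The mean difference was 0.147 ± 0.104 (SD over n = 4 libraries), and it was positive in 4 of 4 libraries (exact sign-flip permutation test, two-sided, p = 0.125, the smallest value that 4 libraries allow). When peaks with a −log10 p under 5 were left out, it averaged 0.0667, and border peaks were lower in both K+PDS libraries, with 4.29 against 4.32 in replicate 1 and 3.64 against 3.68 in replicate 2. Border peaks had 22 and 36 summit reads by their median in K+PEG replicates 1 and 2, against 21 and 32 at the other peaks. They had 17 and 18 in K+PDS replicates 1 and 2, against 16 and 17. Border peaks of K+PEG replicates 1 and 2 were 390 and 409 bp long by their median, against 383 and 401 bp for other peaks. Those of K+PDS replicates 1 and 2 were 365 and 347 bp long, against 376 and 358 bp. The mean difference of -1.75 bp had no common direction (same exact test, p = 0.75). At stretches of at least 20000 bp it was -22.1 bp, with shorter border peaks in 4 of 4 libraries (p = 0.125 by the same exact test, the smallest value possible). This minimum was one of several settings that were run. Peak ends set the edges, so peak length is close to what the rule used, and the 4 libraries share the same border intervals. The local background at border summits was close to the lowest of the library, with a median of 1.11 to 1.14 times the lowest value, against 1.09 to 1.13 times for other peaks.

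The 5 border peaks with the highest fold enrichment were all K+PDS peaks and lay in 3 intervals. All 3 intervals also held K+PEG peaks of lower fold enrichment. The first interval lay on chromosome 11, from 12122245 to 12123615, at the left of a stretch of 20637 bp. Its fold enrichment was 10.5 and 10.4 in K+PEG replicates 1 and 2, against 28.4 and 34.6 in K+PDS replicates 1 and 2, from 53 and 82 reads against 117 and 171 reads at the summit. The second lay on chromosome 7, from 27890557 to 27891839, beside a stretch of 19831 bp, with 11.1 and 10.8 in the K+PEG replicates, against 33.2 and 23.5 in the K+PDS replicates. The third was the left border of the longest stretch, described above, and its K+PDS values of 18.6 and 23.9 also exceeded both K+PEG values. These peaks were picked for their strength, so the higher values under K+PDS are a description and were not tested.

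Beyond the first 10 kb, the sequence beside the stretches had a peak density close to or slightly below the mean of its library. Within the first 10 kb the density was lower than that in each library once border intervals were left out. The density of peaks outside stretches was counted in classes of 10 kb up to 200 kb from their edges and divided by the density of the same library over all bases outside stretches. From 10 kb outwards, the relative density stayed between 0.947 and 1.00 for the first K+PEG replicate and between 0.951 and 0.996 for the second. For the first K+PDS replicate it stayed between 0.943 and 0.985, and for the second between 0.948 and 0.997. In the first 10 kb the K+PEG replicates had 1.19 and 1.18 and the K+PDS replicates had 1.08 and 1.14. A border peak lies at the edge of each stretch by definition. When border intervals were left out of both the flank and the mean, the K+PEG replicates had a relative density of 0.904 and 0.909 in the first 10 kb, and the K+PDS replicates had 0.872 and 0.893. The first class was thus above 1 in each library only with the border peaks counted, and below 1 in each without them.

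**Figure D4:**
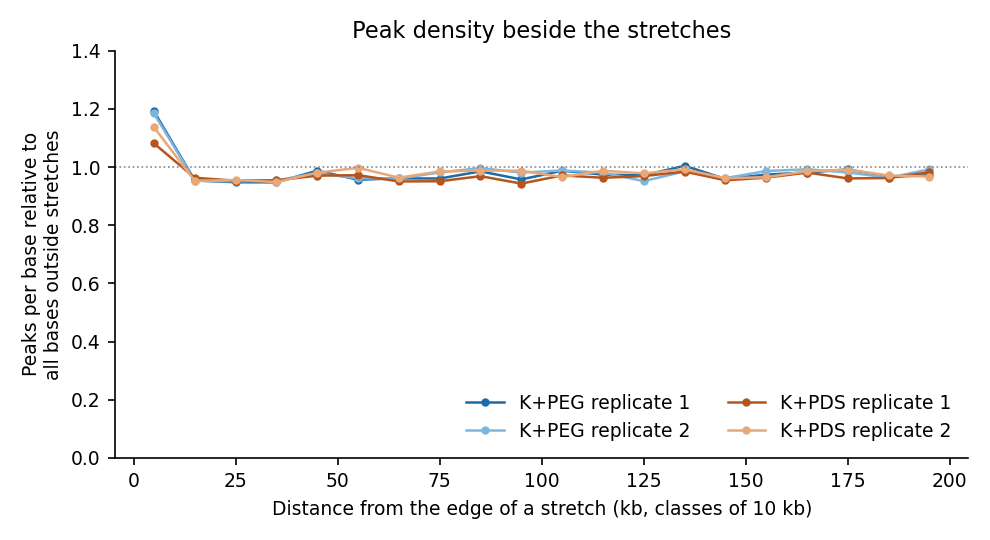
Peaks per base outside stretches relative to the mean of the same library (y axis) against the distance from the edge of a stretch in kb (x axis, classes of 10 kb on both sides joined), with one line per library. All 4 lines lie above 1 in the first class, where each stretch has its border peak, and between 0.943 and 1.00 beyond it.

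Each library alone had many more runs of at least 15 kb than the 4 lists pooled, since a peak of any library ends a pooled stretch. K+PEG replicates 1 and 2 had 3865 and 2917 such runs, and K+PDS replicates 1 and 2 had 5935 and 4963. The K+PEG mean was 3391 ± 670.3 and the K+PDS mean 5449 ± 687 (SD, n = 2 each), so K+PEG minus K+PDS was -2058. Each K+PEG library had fewer runs than each K+PDS library (two-sided exact permutation test, p = 0.333, the smallest value possible). These runs took up 22.2% and 16.1% of the 373.1 Mb in K+PEG replicates 1 and 2, against 37.5% and 29.7% in K+PDS replicates 1 and 2, with mean lengths of 71.3 ± 16.0 and 125.4 ± 20.7 Mb (same exact test, p = 0.333, n = 2 each). The order followed the number of peaks, with the most peaks and fewest runs in K+PEG replicate 2 and the reverse in K+PDS replicate 1. With the 64874 strongest peaks of each library, K+PEG replicates 1 and 2 had 4640 and 4275 runs, against 5935 and 5348 in K+PDS replicates 1 and 2. The difference shrank to -1184. With summit reads thinned in all libraries to that of lowest depth, it was -1819. The thinning only dropped listed peaks that fell under the threshold, and peaks were not called anew. The part of a possible filter on uniquely mapped reads in the K+PDS lists was not tested.

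Around a pooled stretch, the median run was longer in each K+PDS library than in each K+PEG library. Its median length was 21174 and 20266 bp in K+PEG replicates 1 and 2, against 26408 and 23692 bp in K+PDS replicates 1 and 2. Averaged over libraries, the K+PEG median was 20720 ± 642 bp and the K+PDS median 25050 ± 1921 bp (SD, n = 2 each), so K+PEG minus K+PDS was -4330 bp (two-sided exact permutation test, p = 0.333). Without K+PDS replicate 1 it was -2704 bp, and with the 64874 strongest peaks of each library it was -3180.5 bp. A pooled stretch ends at the nearest peak of any library, and the K+PEG lists held more peaks. They held 73199 and 81992 peaks in replicates 1 and 2, against 64874 and 68973 for K+PDS. The lengths and counts given here are therefore not independent of the rule or of the number of peaks. The run was more than 2 times as long as the pooled stretch at 74 and 34 stretches in K+PEG replicates 1 and 2, against 236 and 140 in K+PDS replicates 1 and 2. When the replicates of a condition were pooled, K+PEG had 1975 runs of at least 15 kb (39.8 Mb) and K+PDS had 3288 (69.1 Mb). Of the 1125 stretches, 536 (47.6%) had the same ends in the pooled K+PEG lists and 128 (11.4%) in the pooled K+PDS lists. The run was longer among K+PEG peaks at 356 stretches (31.6%) and longer among K+PDS peaks at 769 (68.4%). Runs at least 2 times as long as the stretch were found at 16 stretches among K+PEG peaks and at 61 among K+PDS peaks. None of these comparisons of pooled lists was made over all gaps, so they may not be particular to the stretches.

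**Figure D5:**
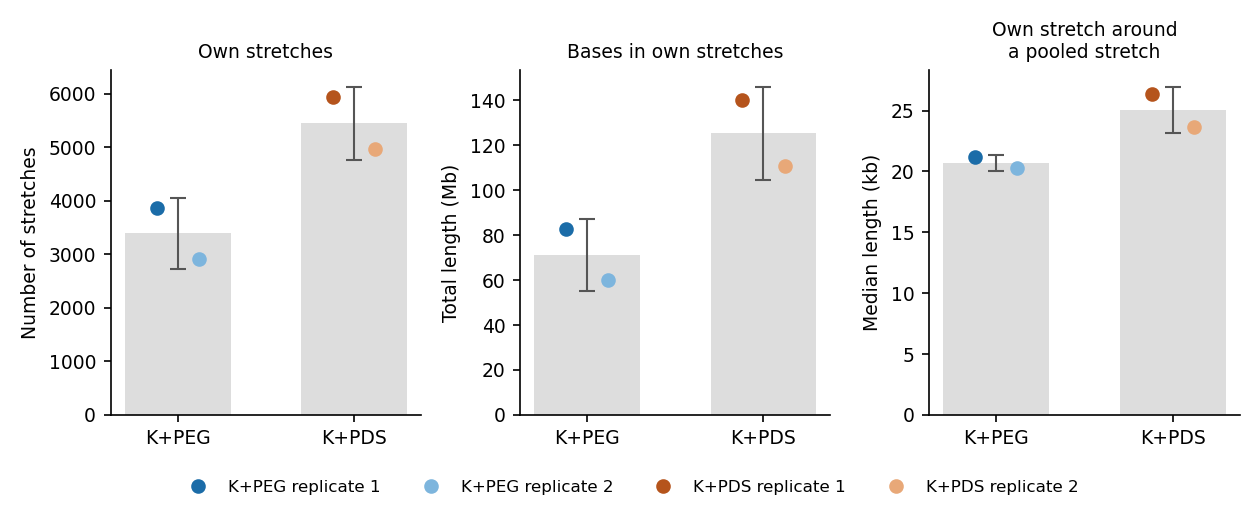
Number of runs of at least 15 kb in each library alone, their total length in Mb and the median length in kb of the run around a pooled stretch (y axes of the 3 panels), for K+PEG and K+PDS (x axes). Points are libraries, bars are means and error bars are SD (n = 2), and in each panel both K+PEG points lie below both K+PDS points.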

How the data were processed

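The stretches and the regions named here were proposed with earlier results of these data known. The authors trimmed reads with Trim Galore, aligned them with BWA to MSU v7.0, kept alignments over 50 bp, discarded duplicates (SAMtools) and ran MACS2 on each library (p = 0.01, fixed extension, no model). No replicates were pooled, and the control given to MACS2 is not given in the sources used here. In the deposited lists, starts count from 0, so 1 was added to each start for printing. As deposited, fold enrichment is a ratio on the linear scale, taken at the summit, and the −log10 p and −log10 q belong to the same summit. The deposited score is 10 times the −log10 p as a whole number and was not used.

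Peaks were pooled and merged in Python 3.11.15 with numpy 2.4.6, pandas 2.3.3 and scipy 1.17.1, and all 115855 merged intervals were identical to those of bedtools 2.31.1. A Poisson model was solved for summit reads and local background from the deposited −log10 p and fold enrichment. Depth was taken from each list's lowest background, assuming an extension of 200 bp, the shortest peak. Intervals are Wilson, at 95%. On simulated data, 39 of 39 stretches and 4113 of 4113 summit reads were recovered. Libraries were the replicates, compared by exact permutation tests. The labels call the libraries replicates, and with so few of them the exact p-values are limited by the number of possible rearrangements. Same-numbered libraries are not said to share a seedling batch. Regions named are the 10 longest stretches, the longest on each chromosome, the 3 nearest the minimum on either side, the densest group within 1 Mb and the 5 border peaks of highest fold enrichment. Alternatives were a −log10 p of at least 5, equal numbers of peaks, minima of 10 and 20 kb, reproducible peaks, a replicate block, leaving out each library, and, after the data had been seen, equal depth, crossed pairing and flanks without border intervals. Sequence, assembly gaps, genes and repeats under the stretches were not analysed here.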

Additional observations from a re-analysis of the deposited data

How the results depend on the processing

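The number of pooled stretches depends on the peaks allowed to end them and on the minimum length. It was 1844 when peaks needed a −log10 p of 5 or more (strict peaks below), 4411 and 300 with minima of 10000 and 20000 bp, 4314 when only reproducible peaks of a condition counted and 5388 when these had to overlap reciprocally by 50%. It lay between 1267 and 1593 when a library was left out, and at 1429 with equal numbers of peaks. The share of border intervals with peaks of all libraries was 18.2% with strict peaks, and between 27.3% and 34.5% without a library, where only the 3 others had to be present. Over all merged intervals it was 18.3% with strict peaks and between 27.0% and 34.7% without a library. Borders with peaks of K+PEG only made up 42.5% of borders (36.1% of all intervals) with strict peaks and 30.4% (23.6%) with equal numbers of peaks. They made up 31.0% (27.4%) at a minimum of 20000 bp. Without a library they made up between 26.1% and 51.1%, against between 20.1% and 41.3% of all intervals. Borders with peaks of K+PDS only made up 14.3% (19.3% of all intervals) with strict peaks and 20.2% (29.3%) with equal numbers of peaks. Without a library they made up between 7.19% and 26.8%, against between 12.6% and 37.1% of all intervals. In each of these settings, K+PEG only intervals were more common and K+PDS only intervals less common at borders than among all intervals. The length difference of border peaks lay between -9.00 and 0.50 bp without a library and turned positive only without K+PDS replicate 1. It was -18.8 bp with strict peaks, -9.38 bp with equal numbers of peaks and -22.1 bp at a minimum of 20000 bp, against -1.75 bp.

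The K+PEG minus K+PDS differences in number of runs, bases, reach and edges kept their sign under 11 of 11 alternatives, and the fold enrichment difference under 9 of 9. For the condition differences, the replicate block and the crossed pairing return the main value by arithmetic, so their sign was fixed in advance. None of these designs can reach 0.05. The bases differed by -54.1 Mb in the main comparison, by -91.1 Mb with strict peaks and by -34.0 Mb with equal numbers of peaks, and the reach by -7937 bp with strict peaks. The fold enrichment difference was 0.0941 without K+PEG replicate 2. The sign flips of the replicate block gave p = 0.5, the smallest exact value for 2 pairs, for all 4 differences. Over 37324 bins, the deviations of same-numbered libraries had a correlation of -0.214, and the crossed pairing, added afterwards, gave the same p. That p was also fixed in advance, since each K+PEG library lay on the same side of each K+PDS library. Of the 10 longest stretches, only the one at 34107378 on chromosome 2 grew to at least 1.55 times its length, to 83324 bp without K+PEG replicate 2 and to 107387 bp with reproducible peaks only. Counting stretches up to chromosome ends and leaving out N bases were not run, since no MSU v7.0 genome was used here.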
